A study of Mus musculus with 16 samples.

Results

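The neuropeptide genes of the mouse retina described here are Penk, Tac1, Vip, Npy, Sst, Cck, Adcyap1, Gal and Nts. They were chosen by name, as 9 genes whose peptides are known transmitters or modulators in the retina or elsewhere in the nervous system, and they correspond to 11 of the 45037 probe sets on the arrays, which name 18193 genes. RNA of the neural retina was measured on 16 Affymetrix 3′ expression arrays in BALB/c mice that lacked Nxnl1 (Nxnl1-/-, called knockout here) or carried the intact gene (Nxnl1+/+, wild type). Nxnl1 is the gene of rod-derived cone viability factor, and the series asked how its loss alters the susceptibility of the retina to light damage. Mice of both sexes in equal proportion, aged 11 to 16 weeks, were kept in the dark for 16 h, placed under white fluorescent light for 1 h, and returned to the dark for 24 h before the retina was dissected free of the retinal pigment epithelium. The dose was 50 lux in 3 knockout and 2 wild-type samples, 2500 lux in 3 knockout and 3 wild-type samples, and 5000 lux in 2 knockout and 3 wild-type samples. The 50 lux animals went through the same dark adaptation and exposure, so they are a dim-light and not an unexposed control. The labels call the samples biological replicates but do not say whether an array holds RNA of 1 animal or of a pool, and they do not say which part of Nxnl1 is missing in the knockout.

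Neuropeptides are made as larger precursors, cut by convertases inside the secretory pathway, stored in dense-core vesicles and released to act mainly on G protein-coupled receptors. In the retina most peptides are made by subsets of amacrine cells, the inhibitory interneurons of the inner retina, which release them beside GABA or glycine. Penk encodes proenkephalin, the precursor of the enkephalins, opioid peptides that act on delta and mu opioid receptors.

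Median intensity per array ran from 14.4 to 15.8, and the number of arrays limits the precision. The brighter Nxnl1 probe set read 2.21 to 2.92 on the log2 scale in knockout retinas, against 5.64 to 7.61 in wild-type retinas. Among amacrine markers, the GABA-synthesising enzyme gene Gad1 read 11.32 to 12.57 on all 16 arrays, while Chat, Slc18a3 and Th, which mark cholinergic and dopaminergic amacrine cells, never exceeded log2 2.84 and were not tested. Lens crystallin genes, which mark carry-over from the lens, stood high on some arrays. The mean log2 level of 11 of them was 3.07 to 8.5 on the knockout arrays and 2.54 to 3.64 on the wild-type arrays, except for 12.25 in replicate 2 of the wild type at 5000 lux.

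Penk was the only peptide gene of the 9 that passed the test in any comparison. It was highest in knockout retinas 24 h after 2500 lux, and it was not high in knockout retinas after 5000 lux. Its log2 intensity was 6.69, 5.75 and 6.33 in knockout retinas at 50 lux, 7.25, 7.61 and 7.62 in knockout retinas at 2500 lux, and 5.58 and 5.53 in knockout retinas at 5000 lux. In wild-type retinas it was 5.27 and 5.45 at 50 lux, 5.72, 5.99 and 6.08 at 2500 lux, and 5.79, 5.78 and 6.01 at 5000 lux. The 3 knockout arrays at 2500 lux lay above all 13 others.

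**Figure D1:**
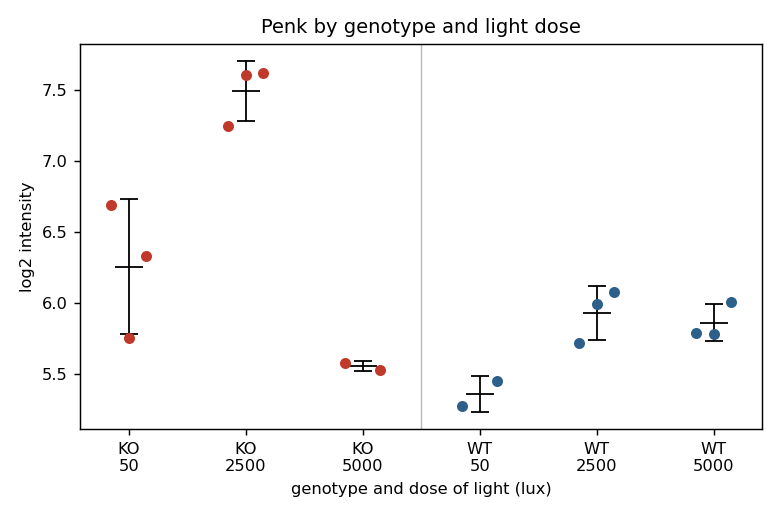
Log2 intensity of Penk (vertical axis) on each of the 16 arrays, by genotype (KO, knockout; WT, wild type) and dose of light in lux (horizontal axis). Points are arrays and the bars give the group mean and SD; the 3 knockout arrays at 2500 lux, at 7.25 to 7.62, lie above every other array.

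Against the 50 lux knockouts, Penk was higher in the 2500 lux knockouts by 1.23 on the log2 scale (SE 0.20, 95% interval 0.81 to 1.66, limma adjusted p = 0.00065), or 2.35-fold. The groups averaged 7.49 ± 0.21 at 2500 lux and 6.26 ± 0.47 at 50 lux (SD, n = 3 each) and did not overlap. It was 1 of 6 peptide genes tested, against 19.3% of all 23320 probe sets called in this comparison, so a call here is common. The call held in all 26 alternative settings, with a difference between 0.98 and 1.56 and an adjusted p of at most 0.02.

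In the same 2500 lux knockouts the 11 rod genes measured were all lower than at 50 lux, with a median difference of -0.75, and of 16 genes of Müller glia and their reactivity 14 were higher and 2 lower. The microglia list read 6.55 to 6.90 at 2500 lux and 5.35 to 5.89 at 50 lux in mean log2 level. In that list Lgals3 (5.11) and Cd68 (2.96) were higher and Csf1r (-1.11) was lower, while Cx3cr1, C1qa, C1qb and Tyrobp were not called. Of 10 genes of the pigment epithelium list, 2 were higher (Trpm1 and Pmel) and 1 lower (Rpe65). With 19.3% of all probe sets called in this comparison, a count of this size in 10 genes lies near the background. Trpm1 was also listed among bipolar and horizontal cell genes, so it does not mark the pigment epithelium alone. The mean of the pigment epithelium list was 6.30 to 7.27 at 2500 lux and 6.59 to 7.41 at 50 lux. Lens crystallin genes stood at 3.63, 7.70 and 3.70 in replicates 1 to 3 at 2500 lux, while Penk was high on all 3. The part of these shifts in the Penk result was not tested. In tissue RNA, a change in the number of cells that express a gene and a change in the RNA per cell cannot be told apart.

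At 5000 lux the knockout value was -0.71 relative to the 50 lux knockouts (SE 0.22, adjusted p = 0.054), with groups of 5.55 ± 0.04 (n = 2) and 6.26 ± 0.47 (n = 3) that did not overlap. The difference missed the threshold, and no peptide gene passed it in this comparison, where 11.4% of probe sets did. It passed with an adjusted p of 0.0066 when replicate 2 of the 50 lux knockouts, the lowest of its group, was left out.

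Penk averaged, in the wild type, 5.36 ± 0.13 at 50 lux (n = 2), 5.93 ± 0.19 at 2500 lux and 5.86 ± 0.13 at 5000 lux (SD, n = 3 each). The differences from 50 lux were 0.57 at 2500 lux (SE 0.22, adjusted p = 0.12) and 0.50 at 5000 lux (SE 0.22, adjusted p = 0.19), and neither passed the test although neither pair of groups overlapped. None of the 6 peptide genes tested passed it in the wild type, where 11.8% of probe sets were called at 2500 lux and 10.5% at 5000 lux.

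Between the bright doses, Penk was lower in the 5000 lux knockouts than in the 2500 lux knockouts, a log2 difference of -1.94 (SE 0.22, 95% interval -2.41 to -1.47, limma adjusted p = 0.013), or 3.84-fold. It had the smallest p of all 23320 probe sets in this comparison, in which 18, or 0.0772%, were called. The call rests on the 2 knockout arrays at 5000 lux: without replicate 2 the difference was -1.91 and the adjusted p 0.12, and with the 5 arrays of these groups fitted alone the adjusted p was 0.13. The same step in the wild type was -0.07 (SE 0.20, 95% interval -0.50 to 0.35, adjusted p = 0.93). No probe set was called there by limma, 0% of those tested, and 1917 had an unadjusted p under 0.05.

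Between the genotypes, Penk was higher in knockout than in wild-type retinas at 2500 lux by 1.56 on the log2 scale (SE 0.20, 95% interval 1.14 to 1.99, limma adjusted p = 0.013), or 2.95-fold. The groups averaged 7.49 ± 0.21 in the knockout and 5.93 ± 0.19 in the wild type (SD, n = 3 each). It ranked 4 by p among the 22 probe sets called, 0.0943% of those tested. The adjusted p was 0.12 without replicate 1 of the wild type, 0.074 without its replicate 2, 0.072 without replicate 2 of the knockout and 0.059 without its replicate 3, with differences between 1.45 and 1.59. With the 6 arrays of these groups fitted alone it was 0.14. Between the genotypes at this dose none of 11 rod, 16 Müller glia, 7 microglia and 10 amacrine genes was called, with list medians of -0.19, 0.33, -0.13 and 0.02. With 0.0943% of probe sets called, lists of this size could hold no call and still differ. The rod list mean was 12.81 to 12.94 on the knockout arrays and 13 to 13.18 on the wild-type arrays. The means of the Müller glia, microglia and amacrine lists overlapped between the genotypes. The lens list had a median of 2.04, with 0 of 11 called. The part of these lists in the Penk result was not tested.

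At 50 lux Penk averaged 6.26 ± 0.47 in knockout retinas (n = 3) and 5.36 ± 0.13 in wild-type retinas (n = 2), a difference of 0.90 (SE 0.22, 95% interval 0.43 to 1.38). The groups did not overlap, but the adjusted p of 0.12 missed the threshold, which 0.326% of probe sets passed. Without replicate 2 of the knockout at 50 lux the difference was 1.15 and passed (adjusted p = 0.012). At 5000 lux the means were 5.55 ± 0.04 in knockout (n = 2) and 5.86 ± 0.13 in wild-type retinas (n = 3), a difference of -0.31 (SE 0.22, 95% interval -0.78 to 0.17, adjusted p = 1), in a comparison where 0.00429% of probe sets were called.

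Ordered by group mean, Penk stood at 7.49 in the knockout at 2500 lux, 6.26 in the knockout at 50 lux, 5.93 in the wild type at 2500 lux, 5.86 in the wild type at 5000 lux, 5.55 in the knockout at 5000 lux and 5.36 in the wild type at 50 lux. The arrays of the second and the third of these groups overlapped, as did those of the third and the fourth. The other neighbours did not overlap, and of these the knockout at 2500 lux differed from the knockout at 50 lux by the test above, the genotypes at 5000 lux did not pass it, and the knockout at 5000 lux was not tested against the wild type at 50 lux. Averaged over genotypes and both bright doses, Penk was higher than at 50 lux by 0.40 (SE 0.13, limma adjusted p = 0.037), a comparison in which 28.9% of probe sets were called. That average joins a positive difference at 2500 lux and a negative one at 5000 lux in the knockout, and it lost the call in 13 of 25 alternative settings, among them leaving out any of 11 arrays in turn.

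The difference between the genotypes in each response was also tested. Averaged over the bright doses, the knockout response minus the wild-type response of Penk was -0.27 (SE 0.26, adjusted p = 0.70), with 0.0643% of probe sets called. In comparisons added after the values were seen, the genotype difference was 0.66 for the 2500 lux response (SE 0.29, adjusted p = 0.54), with 0.0472% called. For the step between the 2500 and 5000 lux doses it was -1.87 (SE 0.29, adjusted p = 0.14), with 0.00858% called. For the 5000 lux response, with 0.0257% called, no peptide gene passed either. None of these Penk values passed the test, so the Penk responses are not shown to differ between the genotypes.

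Of the other peptide genes, Tac1, Vip, Npy, Sst and Cck were measured above the filter, and none of them passed the test in any of the 14 comparisons. Tac1 encodes the precursor of substance P and neurokinin A. Its log2 intensity was 9.82, 9.24 and 8.89 in knockout retinas at 50 lux, 9.51, 9.54 and 9.58 at 2500 lux, and 9.06 and 8.51 at 5000 lux. In wild-type retinas it was 9 and 8.90 at 50 lux, 9.33, 9.82 and 9.48 at 2500 lux, and 9.59, 8.59 and 8.93 at 5000 lux. The 2500 lux arrays were the most even in the knockout, and the lowest array of each genotype was at 5000 lux. The step between the bright doses was -0.76 in the knockout (SE 0.29, adjusted p = 0.31) and -0.51 in the wild type (SE 0.26, adjusted p = 0.62).

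Vip encodes vasoactive intestinal peptide, made in the retina by GABAergic amacrine cells. It read 7.84, 7.10 and 6.86 in knockout retinas at 50 lux, 7.36, 7.03 and 7.21 at 2500 lux, and 6.89 and 5.86 at 5000 lux. In wild-type retinas it read 6.44 and 6.55 at 50 lux, 7.08, 7.78 and 7.15 at 2500 lux, and 7.31, 6.74 and 6.46 at 5000 lux. The 2500 and 50 lux arrays overlapped in the knockout and did not overlap in the wild type. The 2500 lux difference was -0.07 in the knockout (SE 0.31, 95% interval -0.73 to 0.60) and 0.84 in the wild type (SE 0.35, 95% interval 0.10 to 1.59, adjusted p = 0.14). At 5000 lux it was -0.89 in the knockout (SE 0.35, adjusted p = 0.11) and 0.34 in the wild type (SE 0.35, adjusted p = 0.63). The knockout value ranged from -1.41 to -0.37 as single arrays were left out. It was -1.41 without replicate 1 at 5000 lux, a fit that leaves only the lower array of that group, at 5.86. The knockout response minus the wild-type response over both bright doses was -1.07 (SE 0.42, 95% interval -1.97 to -0.17), with an adjusted p of 0.44.

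Npy encodes neuropeptide Y, which signals through inhibitory G protein-coupled receptors. It read 7.67, 6.88 and 7.10 in knockout retinas at 50 lux, 7.54, 7.46 and 7.60 at 2500 lux, and 7.54 and 6.95 at 5000 lux. In wild-type retinas it read 6.96 and 6.50 at 50 lux, 7.26, 7.64 and 7.58 at 2500 lux, and 7.40, 7.02 and 6.94 at 5000 lux. All 3 wild-type arrays at 2500 lux lay above both at 50 lux, a difference of 0.76 or 1.69-fold (SE 0.24, 95% interval 0.24 to 1.28) that missed the threshold at an adjusted p of 0.06. It passed in 7 of 26 alternative settings, at an adjusted p of 0.03 when replicate 1 of the 50 lux knockouts was left out and of 0.046 without either knockout array at 5000 lux. In the knockout the same difference was 0.32 (SE 0.22, adjusted p = 0.34).

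Cck encodes cholecystokinin. It read 7.84, 7.03 and 6.60 in knockout retinas at 50 lux, 6.81, 6.86 and 6.62 at 2500 lux, and 6.74 and 6.39 at 5000 lux. In wild-type retinas it read 7.19 and 6.98 at 50 lux, 6.77, 7.03 and 6.75 at 2500 lux, and 6.77, 6.47 and 6.60 at 5000 lux. Both genotypes had their lowest mean at 5000 lux, 6.57 ± 0.25 in the knockout (n = 2) and 6.62 ± 0.15 in the wild type (n = 3). The bright-light average was -0.43 relative to 50 lux (SE 0.16, 95% interval -0.77 to -0.08, adjusted p = 0.062), and it passed when replicate 3 of the 50 lux knockouts was left out (adjusted p = 0.0089).

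Sst encodes somatostatin and was near the limit of measurement, above log2 4 on 4 of 16 arrays. It read 4.93, 3.77 and 3.37 in knockout retinas at 50 lux, 3.96, 4.05 and 4.09 at 2500 lux, and 3.67 and 2.73 at 5000 lux. In wild-type retinas it read 3.57 and 3.60 at 50 lux, 3.37, 4.39 and 3.87 at 2500 lux, and 3.11, 2.84 and 2.73 at 5000 lux. All 3 wild-type arrays at 5000 lux lay below all 5 others of that genotype, but all 3 wild-type means were under log2 4, so no fold is given.

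**Figure D2:**
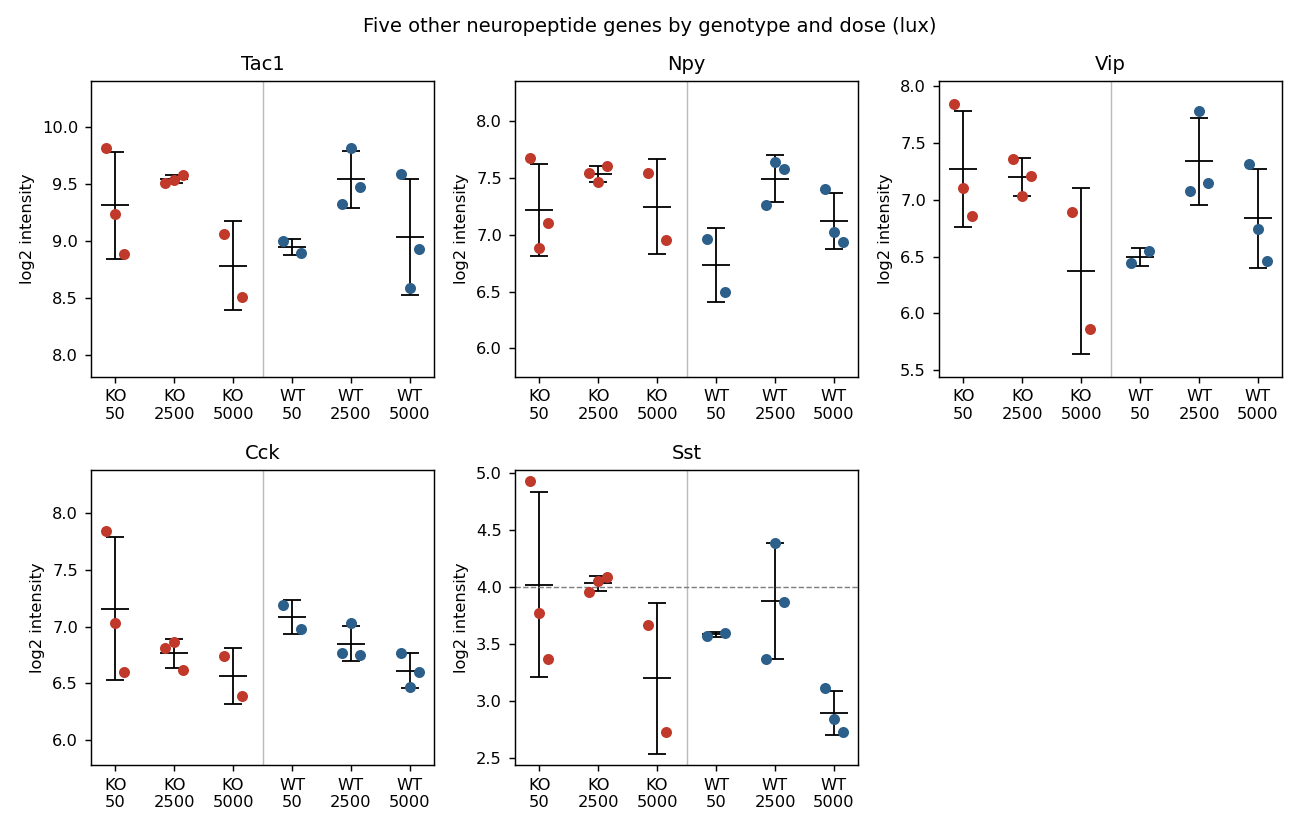
Log2 intensity (vertical axes) of Tac1, Npy, Vip, Cck and Sst on each array, by genotype and dose of light in lux (horizontal axes). Points are arrays, bars give the group mean and SD, and the dashed line in the Sst panel marks log2 4; for each gene the knockout arrays at 50 lux are widely spread, from 6.60 to 7.84 for Cck.

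Adcyap1 (which encodes PACAP), Gal (galanin) and Nts (neurotensin) did not pass the filter on low values and were not tested. The 2 probe sets of Adcyap1 reached 3.05 and 2.40 at most on any array. Gal and a second probe set of Tac1 lay at the lowest value of the table, log2 2.21, on all 16 arrays, and Nts read log2 2.21 on all 16 after rounding to 2 decimals. A signal at this level says that the probe set did not detect the transcript above background, not that the transcript is absent.

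**Figure D3:**
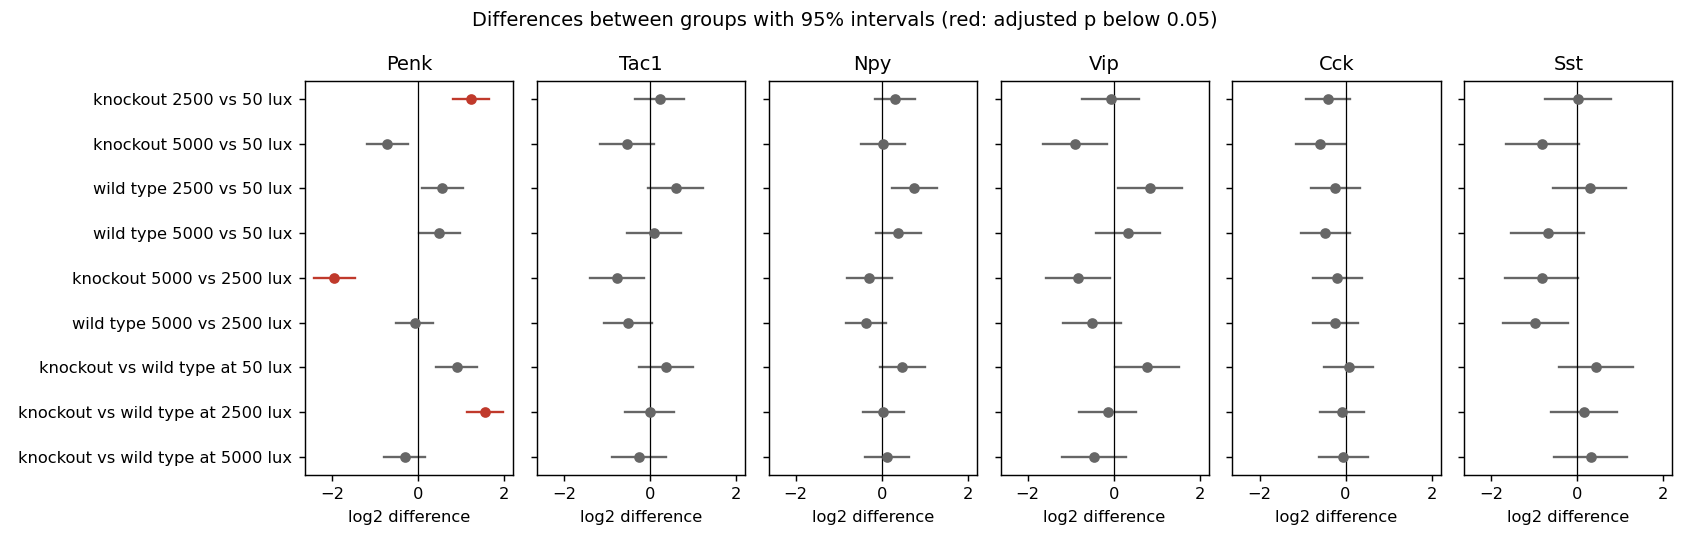
Log2 differences (horizontal axes) with 95% intervals of the 6 tested peptide genes in 9 comparisons (vertical axis), from the limma fit to 16 arrays. Red marks an adjusted p below 0.05; it appears for Penk in 3 comparisons, at 1.23, -1.94 and 1.56, and for no other gene.

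Several peptide genes respond to cyclic AMP through CRE motifs, the binding sites of CREB and AP-1 family factors, so the RefSeq promoters (GRCm38.p6) were searched for the palindrome TGACGTCA, its core TGACG, and the heptamer TGCGTCA, on both strands. The core is contained in the palindrome and, read on the other strand, in the heptamer. Of the 9 genes 8 had an entry, Penk being the exception. Within 250 bases upstream of the start, 1.55% of 32851 promoters hold the palindrome, 17.8% the core and 1.75% the heptamer. The stretches below, of 120 bases each, are shown because they hold a match in each of the 4 measured genes that have one, with that match in capitals.
Sst, chr16:23890845-23890964, minus strand: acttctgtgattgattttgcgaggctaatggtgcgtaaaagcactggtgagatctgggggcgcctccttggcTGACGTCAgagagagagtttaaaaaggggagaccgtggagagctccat
Cck, chr9:121495695-121495814, minus strand: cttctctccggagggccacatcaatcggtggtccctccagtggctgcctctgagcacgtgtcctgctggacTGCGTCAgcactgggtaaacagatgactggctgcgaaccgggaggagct
Tac1, chr6:7554811-7554930, plus strand: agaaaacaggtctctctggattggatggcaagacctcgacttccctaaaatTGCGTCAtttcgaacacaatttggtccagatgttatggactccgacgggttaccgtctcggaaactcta
Vip, chr10:5639081-5639200, plus strand: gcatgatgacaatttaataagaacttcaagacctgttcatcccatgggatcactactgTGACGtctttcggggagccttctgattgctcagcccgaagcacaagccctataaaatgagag
In Sst the palindrome lies at -48 to -41 from the start, in Cck the heptamer lies at -49 to -43, in Tac1 the heptamer lies at -199 to -193, and in Vip the core lies at -79 to -75. Tac1 holds a further core match that begins at -43, outside the stretch shown. Npy and Gal hold none of these letters in the same 250 bases. Nts and Adcyap1, which were not tested, hold the core. It begins at -166 in Nts, and in Adcyap1 at -91 from start 1 and at -242 from start 2. None of the 4 genes printed passed the test in any comparison, and a match is a stretch of letters, not a shown binding site.

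CREB and AP-1 family genes themselves were measured on the same arrays. Of 15 immediate early and CREB or AP-1 genes tested, 7 rose and 1 fell in the knockout at 2500 lux, and 6 rose in the knockout at 5000 lux, against 50 lux, beside 19.3% and 11.4% of all probe sets called in these comparisons. Wild-type retinas had 5 that rose at 2500 lux and 6 that rose at 5000 lux, beside 11.8% and 10.5% of all probe sets. The medians of the list were 0.55 and 0.39 in the knockout and 0.68 and 0.81 in the wild type, against -0.08, -0.09, 0.04 and 0 over all genes tested. Junb, an AP-1 subunit, rose by 3.67 at 2500 lux in the knockout (SE 0.29, adjusted p = 2.1e-06) and by 3.36 in the wild type (SE 0.32, adjusted p = 1.6e-05). Atf3, a stress-induced factor of the same family, rose by 2.69 in the knockout (adjusted p = 1.2e-05) and by 3.33 in the wild type (adjusted p = 7.9e-06).

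Fosl1, another AP-1 subunit, read 3.83, 4.37 and 4.69 in the knockout at 2500 lux and 2.21 on all 5 other knockout arrays, the lowest value of the table. On the 8 wild-type arrays it read 2.21 to 3.65. It passed the filter on low values only through 2 of the 2500 lux knockout arrays, so it is 1 of the 7 genes counted as higher there without being evidence for that count, and its values are a description.

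The receptors of these peptides were mostly under the level of detection. Of 28 receptor genes listed, 26 were on the array and 5 were tested. The opioid receptor genes Oprd1 and Oprm1, whose products bind enkephalins, and Oprk1, the dynorphin receptor gene, reached log2 2.21, 2.21 and 2.41 at most. Vipr2, a receptor for VIP and PACAP, was the only one of the 5 called in any comparison. Between 10.5% and 28.9% of all probe sets were called in the comparisons that called Vipr2, so this count lies near the background.

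Vipr2 read 6.18, 5.97 and 6 in the knockout at 2500 lux, against 6.49, 6.66 and 6.52 in the knockout at 50 lux. Wild-type retinas read 6.32, 6.30 and 5.87 at 2500 lux, against 6.88 and 6.96 at 50 lux. No bright array at this dose reached the 50 lux arrays of its genotype. Vipr2 fell by 0.51 in the knockout (SE 0.15, adjusted p = 0.032) and by 0.75 in the wild type (SE 0.17, adjusted p = 0.011) at 2500 lux, and in the wild type at 5000 lux by 0.70 (SE 0.17, adjusted p = 0.017). In the knockout at 5000 lux the difference of -0.47 did not pass (adjusted p = 0.09). Averaged over genotypes and both bright doses it fell by 0.61 (adjusted p = 0.00063), a call kept in all 25 alternative settings, while the adjusted p reached 0.10 to 0.12 in the knockout at 2500 lux and in the wild type at 5000 lux when replicate 2 of the knockout at 2500 lux or of the wild type at 50 lux was left out. For the wild type at 2500 lux it reached 0.091 without replicate 2 at 50 lux.

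Of 18 genes tested that serve prohormone processing or dense-core vesicles, Cadps2 and Ctsl rose and a few fell. Against 50 lux, 2 rose and 1 fell in the knockout at 2500 lux, 1 rose and 2 fell in the knockout at 5000 lux, 2 rose in the wild type at 2500 lux, and 2 rose and 1 fell in the wild type at 5000 lux. With 19.3%, 11.4%, 11.8% and 10.5% of all probe sets called in these comparisons, the counts lie near the background. The list medians stayed between -0.25 and 0.12, against -0.09 to 0.04 over all genes tested.

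Cadps2, a priming factor for dense-core vesicle release, rose in both genotypes at both doses. It read 7.91, 7.38 and 7.40 in the knockout at 2500 lux, 6.82 and 6.85 in the knockout at 5000 lux, and 6, 5.13 and 5.67 in the knockout at 50 lux. Wild-type retinas read 6.52, 7.22 and 7.32 at 2500 lux and 7.03, 7.35 and 7.35 at 5000 lux, against 4.97 and 4.41 at 50 lux. No bright array overlapped the 50 lux arrays of its genotype. The rise at 2500 lux was 1.96 in the knockout (adjusted p = 0.00013) and 2.33 in the wild type (adjusted p = 0.00015), and at 5000 lux it was 1.24 in the knockout (adjusted p = 0.016, 0.12 without replicate 2) and 2.55 in the wild type (adjusted p = 6.4e-05).

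Ctsl, a cathepsin that can cut proenkephalin and is also a general lysosomal protease, rose by 0.78 in the knockout at 2500 lux (adjusted p = 0.00041), by 0.82 in the wild type at 2500 lux (adjusted p = 0.0012) and by 0.76 in the wild type at 5000 lux (adjusted p = 0.0022). Vgf, the precursor of several secreted peptides, fell by 1.58 in the knockout at 5000 lux (adjusted p = 0.0064, 0.069 without replicate 2) and by 1.42 in the wild type at 5000 lux (adjusted p = 0.0084, 0.099 without replicate 1 at 50 lux). Pcsk1n, an inhibitor of a prohormone convertase, fell by 0.68 in the knockout at 2500 lux (adjusted p = 0.014, 0.065 without replicate 1 at 2500 lux). Ptprn2, a membrane protein of dense-core vesicles, fell by 1.10 in the knockout at 5000 lux (adjusted p = 0.04, 0.42 without replicate 2).

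Of 7 peptide-degrading enzymes tested, only Nln was called. In the comparisons that called it, 10.5% to 28.9% of all probe sets were called, so this count lies near the background. Nln, or neurolysin, which cleaves neurotensin and other short peptides, rose by 0.98 in the knockout at 2500 lux (adjusted p = 0.0015), where its arrays read 5.81 to 5.92, against 4.71 to 5 at 50 lux. In the wild type it rose by 0.72 at 2500 lux (adjusted p = 0.03) and by 0.70 at 5000 lux (adjusted p = 0.036), and these calls were lost at adjusted p of 0.22 and 0.27 without replicate 1 at 50 lux.

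Of 38 further neuropeptide genes listed, 32 were on the array and 8 were tested, and none rose in any comparison. At most 2 of the 8 were called in a comparison, which is also near the background. In the knockout at 2500 lux Pomc, the precursor of melanocortins and beta-endorphin, fell by 0.78 (adjusted p = 0.013, 0.069 without replicate 3 at 2500 lux) and Nmb, which encodes neuromedin B, fell by 0.57 (adjusted p = 0.007). Crh, which encodes corticotropin-releasing hormone, read 3.61 and 2.90 in the knockout at 5000 lux, against 5.84, 5.28 and 4.51 in the knockout at 50 lux. With the dim arrays set at log2 4, Crh was at least 2.31-fold lower at 5000 lux, a bound that was not itself tested. The test used the values as measured, with a difference of -1.96 (limma adjusted p = 0.0063). That call was lost in 4 of 26 alternative settings. The medians of this list were -0.34 and -0.39 in the knockout and -0.05 and -0.33 in the wild type at 2500 and 5000 lux.

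In 4 of the 6 groups, an array stood highest or lowest of its group for at least 5 of the 6 peptide genes tested. In the knockout at 50 lux, replicate 1 was the highest of its group for all 6 genes tested, and in the knockout at 5000 lux replicate 2 was the lower array for all 6. Replicate 2 of the wild type at 2500 lux and replicate 1 of the wild type at 5000 lux were the highest of their groups for 5 of 6. The other 2 groups were mixed: in the wild type at 50 lux each array was the higher for 3 of 6 genes, and in the knockout at 2500 lux replicate 3 was the highest for 4 of 6 and the lowest for 1.

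**Figure D4:**
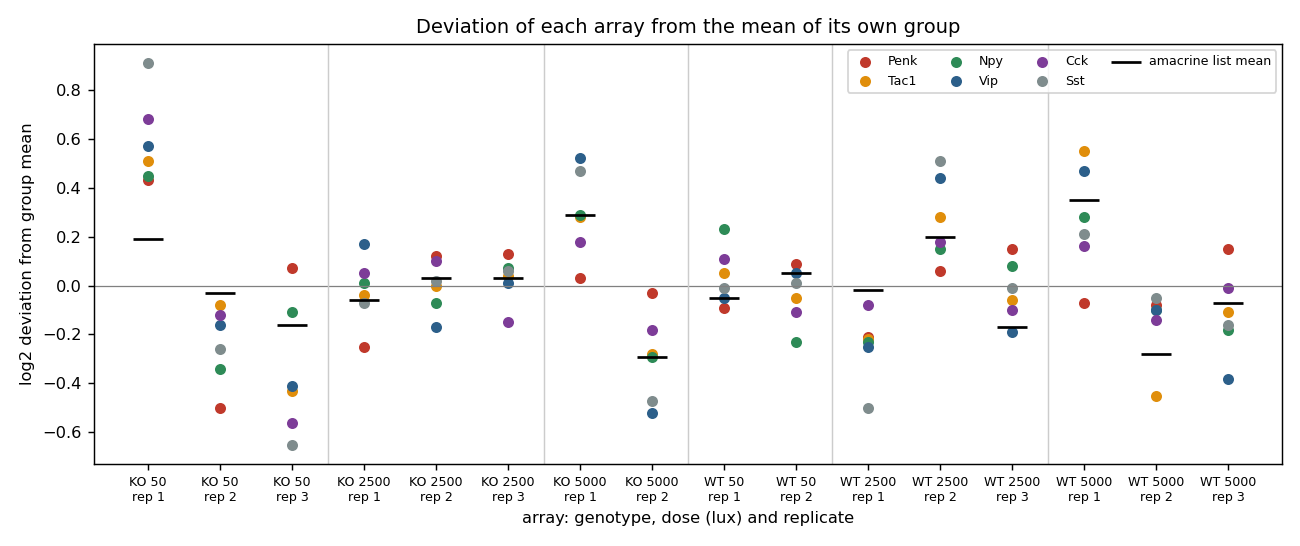
Log2 deviation of each array from the mean of its own group (vertical axis) for the 6 tested peptide genes (points) and for the mean of 10 amacrine genes (black bars), by array (horizontal axis; KO, knockout; WT, wild type; doses in lux). All 6 genes and the amacrine mean lie above 0 in replicate 1 of the knockout at 50 lux, and all lie below 0 in replicate 2 of the knockout at 5000 lux.

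General amacrine genes moved with these arrays. The mean log2 level of 10 of them was 9.54 to 9.63 in the knockout at 2500 lux, 8.84 to 9.43 in the knockout at 5000 lux and 9.65 to 10 in the knockout at 50 lux. Wild-type arrays stood at 9.42 to 9.79 at 2500 lux, 8.99 to 9.62 at 5000 lux and 9.44 to 9.54 at 50 lux. Their summed intensity was 13400 to 13500 in the knockout at 2500 lux, 7940 to 12400 in the knockout at 5000 lux and 13400 to 16500 in the knockout at 50 lux.

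Of the 10 amacrine genes, 5 fell in the knockout at 5000 lux against 50 lux, where 11.4% of all probe sets were called, and none was called in the other light comparisons within a genotype, or between the genotypes at any dose. The 5 were Gad1, Gad2, Slc32a1, which carries GABA into synaptic vesicles, the glycine transporter gene Slc6a9, and Calb2, with falls of 0.75, 0.98, 0.99, 0.68 and 0.98. Each lost the call without replicate 2 of the knockout at 5000 lux, with adjusted p between 0.15 and 0.38. In the bright-light average 3 of the 10 fell, near the background of 28.9%; of these Gad1 lost the call in 15 and Slc6a9 in 11 of 25 alternative settings. Of 11 ganglion cell genes, 5 fell in the knockout at 5000 lux against 50 lux, and each lost the call without the same replicate 2, with adjusted p between 0.19 and 0.45. The part of these shifts in the lower peptide values at 5000 lux was not tested.

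Penk was also set against the mean level of the 10 amacrine genes. Whether that mean follows the cells that express Penk was not tested. Penk minus the mean log2 of the 10 amacrine genes was -2.30, -2.02 and -2.01 in the knockout at 2500 lux, and between -4.17 and -3.19 on the other 13 arrays. With that mean as a covariate, an alternative added after the values were seen, Penk was higher in the knockout at 2500 lux than at 50 lux by 1.28 (adjusted p = 0.00097) and higher in the knockout than in the wild type at 2500 lux by 1.56 (adjusted p = 0.015). The step between the bright doses in the knockout was then -1.85, with an adjusted p of 0.08. The same covariate brought Tac1 past the threshold in the knockout at 2500 lux (0.52, adjusted p = 0.021) and, in the wild type at 2500 lux, Npy (0.68, adjusted p = 0.039) and Vip (0.68, adjusted p = 0.042). Vip also passed with it in the wild type at 5000 lux (0.69, adjusted p = 0.048). In the bright-light average it added Npy (0.58, adjusted p = 0.0085), Tac1 (0.45, adjusted p = 0.0081) and Vip (0.45, adjusted p = 0.032).

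**Figure D5:**
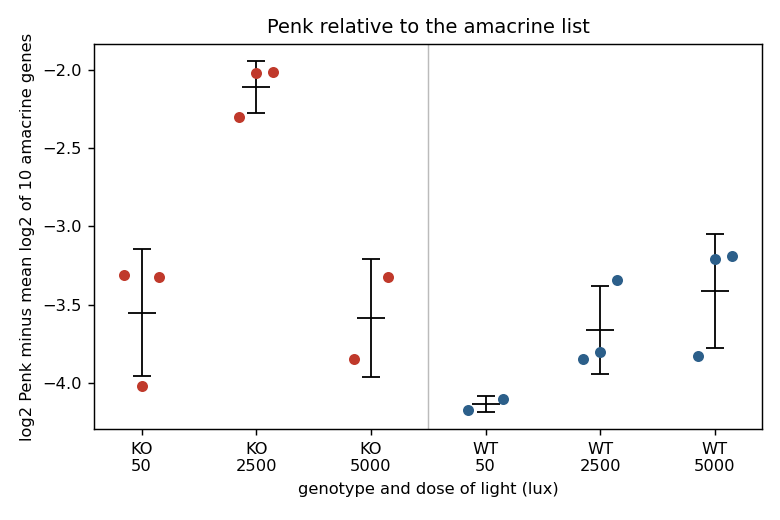
Log2 Penk minus the mean log2 level of 10 amacrine genes (vertical axis) on each array, by genotype and dose of light in lux (horizontal axis). Points are arrays and bars give the group mean and SD; the knockout arrays at 2500 lux lie at -2.30 to -2.01 and all others at -3.19 or lower.

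The genes whose pattern over the 16 arrays was nearest to that of Penk were Hecw2, Hbegf and Zic1, by the root mean square difference of log2 values after each gene was centred on its mean. That difference was 0.36 for Hecw2, 0.38 for Hbegf and 0.38 for Zic1, against a root mean square of 0.73 for Penk about its own mean. Hecw2, a ubiquitin ligase gene, averaged 4.42, 5.27 and 3.73 in the knockout at 50, 2500 and 5000 lux and 3.69, 4.52 and 4.33 in the wild type. Hbegf, which encodes a growth factor that binds the EGF receptor, averaged 4.93, 5.86 and 4.67 in the knockout and 4.42, 5.10 and 4.57 in the wild type. Zic1, a zinc finger transcription factor gene, averaged 6.64, 7.29 and 6.07 in the knockout and 5.82, 6.45 and 6.35 in the wild type. In each of the 3 the highest group was the knockout at 2500 lux. Hecw2 and Hbegf rose in the knockout at 2500 lux against 50 lux (0.85, adjusted p = 0.0095, and 0.93, adjusted p = 0.01, or 0.05 without replicate 2 at 2500 lux), and Zic1 did not pass (0.65, adjusted p = 0.094). Hecw2 rose in the wild type at 2500 lux as well (0.83, adjusted p = 0.028, or 0.17 without replicate 1 at 50 lux). They were picked for their likeness to Penk, so their levels are a description.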

How the data were processed

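The authors deposited a linear intensity for each probe set on each array, which they made with GCRMA per the submitters' processing notes (no version or settings given). The lowest value, 4.62 (log2 2.21), filled 30.9% to 31.5% of each array. Log2 was taken, and probe sets above log2 4 on at least 2 arrays were tested (23320). The brightest probe set by its mean stood for a gene, with names from the platform annotation. All 16 arrays entered a single limma fit (version 3.58.1, R 4.3.3) with 6 group means, unpaired, with Benjamini-Hochberg adjustment over all probe sets tested in each of 11 comparisons and 3 added later, and 0.05 as the threshold. A dim group (no array above log2 4) gives a bound against log2 4. The p-values measure the spread between arrays, which may be technical. The script was tested on simulated data.

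The members and the gene lists were chosen with earlier results of these data known. Named genes were the members, Nxnl1, up to 3 genes of each list with the smallest p in a comparison, and the 3 nearest in pattern to a called member; other amacrine genes and undetected genes were named after their values were seen. Alternatives covered the filter, a floor, quantile normalization, an intensity trend, array weights, fits of the compared groups alone, a replicate block, and leaving out each array.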

Additional observations from a re-analysis of the deposited data

Results flagged for a closer look

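At 5000 lux, Penk values lay below the 50 lux mean on every knockout array and above it on every wild-type array, although neither response passed the test (adjusted p = 0.054 in the knockout and 0.19 in the wild type). Both knockout arrays at 5000 lux, at 5.58 and 5.53, lay below the 50 lux knockout mean of 6.26, and all 3 wild-type arrays at 5000 lux, at 5.79, 5.78 and 6.01, lay above the 50 lux wild-type mean of 5.36. The knockout response minus the wild-type response was -1.21 on the log2 scale (SE 0.31, 95% interval -1.88 to -0.54), with a limma p of 0.0018 and an adjusted p of 0.32, in a comparison added after the values were seen. The difference did not pass the test over all probe sets, where 0.0257% were called.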

How the results depend on the processing

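Each comparison was refitted in up to 26 alternative settings, 16 of which left out 1 array. Of 2158 values for the 6 tested peptide genes, 2100 kept their side of the threshold, 22 lost a call, 36 gained one and none with a call changed direction. Most of these values belong to results without a call. The Penk call was lost in 0 of 26 settings for the knockout at 2500 against 50 lux and in 4 of 26 for the knockout step. It was lost in 5 of 26 between the genotypes at 2500 lux and in 13 of 25 for the bright-light average. The number of peptide genes called in the knockout at 2500 lux against 50 lux, 1 in the fit reported, was 2 with array weights and 2 with the amacrine level as a covariate; at 5000 lux, 0 as reported, it was 1 with quantile normalization and 1 with the replicate block. In the wild type at 2500 lux, 0 as reported, it was 1 with array weights, 1 with the replicate block, 2 with the covariate and 1 without the 3 arrays of most extreme amacrine level (replicate 1 of the knockout at 50 lux, replicate 2 of the knockout at 5000 lux and replicate 2 of the wild type at 5000 lux); at 5000 lux, 0 as reported, it was 3 with array weights and 1 with the covariate. For the step between the bright doses in the knockout, 1 as reported, it was 0 with these groups fitted alone, 0 with the covariate and 0 without the 3 arrays, and for the knockout against the wild type at 2500 lux, 1 as reported, it was 0 with these groups fitted alone. For the bright-light average, 1 as reported, it was 0 with no filter, 3 with array weights, 3 with the replicate block, 4 with the covariate and 2 without the 3 arrays. With 1 array left out the counts ranged from 1 to 2, 0 to 1, 0 to 1 and 0 to 0 in those 4 light comparisons, 0 to 1 for the knockout step, 0 to 0 for the wild-type step, 0 to 1, 0 to 1 and 0 to 0 between genotypes at 50, 2500 and 5000 lux, 0 to 2 for the bright-light average and 0 to 0 for its genotype difference.

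The replicate numbers were not taken as pairs, since the labels give only a number and do not say that same-numbered samples belong together. Residuals of same-numbered arrays correlated at -0.24 to 0.69, above 0.1 in 21 of 36 pairs. The unpaired fit may therefore leave out structure that same-numbered arrays share. As a replicate block, the replicate numbers added Vip in the knockout at 5000 lux (-1.01, adjusted p = 0.042) and Npy in the wild type at 2500 lux (0.78, adjusted p = 0.034). They also added Npy and Cck in the bright-light average. The genotype difference of Penk in the step between the bright doses passed without replicate 2 of the knockout at 50 lux (adjusted p = 0.037) or without replicate 3 of the wild type at 2500 lux (adjusted p = 0.041). The background moved too: probe sets called numbered 18 for the knockout step, against 0 to 103 with 1 array left out, and 22 between the genotypes at 2500 lux, against 2 to 86. The cause of these changes was not tested. Averaging the probe sets of a gene gave no value, since no member had more than 1 tested. Groups of 2 arrays and values near the lowest level limit what could be detected for Sst, and the array files give no counting depth. The covariate and the fit without 3 arrays were chosen after the data were seen.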
